A study of Mus musculus with 8 samples.

Results

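The genes described here are the 19 Wnt ligands, the 10 frizzled receptors Fzd1 to Fzd10, the co-receptors Lrp5 and Lrp6, and 3 genes that are read as outputs or effectors of the pathway (Lef1, Tcf7 and Axin2). They were taken by name, and all 34 were found among the 50462 gene identifiers of the table. RNA-seq was performed on cartilage caps from the medial side of the knee of male wild-type C57BL/6J mice, with 1 library per mouse and 4 mice in each of 2 groups. Naive mice had no surgery and were sampled at day 0, at 11 weeks of age. Mice of the other group underwent destabilisation of the medial meniscus (DMM), where cutting the ligament that tethers the medial meniscus of the left knee models osteoarthritis after injury, and were sampled at day 42, at 17 weeks of age. They were operated on under isoflurane and received buprenorphine for pain, and the naive mice were untreated. No sham-operated or age-matched group was analysed here, so the effects of surgery, drugs and 6 weeks of ageing cannot be told apart.

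Wnts are lipid-modified secreted proteins that bind frizzled receptors. Together with Lrp5 or Lrp6 they stop the destruction of beta-catenin, which then enters the nucleus and acts with the DNA-binding factors of the Tcf/Lef family, whereas other Wnts act through frizzleds and the receptors Ror and Ryk without beta-catenin. In the skeleton the pathway shapes the joint, promotes bone formation and, when beta-catenin signalling is strong, moves articular chondrocytes away from the cartilage phenotype.

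Total estimated counts lay between 12479443 and 16548002 per library. Among 10 chondrocyte markers, the type II collagen gene Col2a1 had 15101 to 36986 normalised counts in naive and 40178 to 97826 in DMM libraries. Others were far lower, with Col9a1 at 98.5 to 1710.8 and 204 to 848.7, and Matn3 at 18.5 to 329.9 and 24.9 to 200.9. Of the 10 markers, 5 were called higher in DMM and 1, Cytl1, lower. The log2 fold change was above 0 for 7 of them and below 0 for 3. The same libraries also held marrow and bone transcripts. Summed over 10 neutrophil lineage markers, of which all 10 were called lower, normalised counts were 126800 to 190900 in naive and 55730 to 114400 in DMM libraries, and the 10 erythroid markers summed to 154700 to 302600 and 79740 to 171200 (8 lower, with Ahsp at 0 counts throughout). The 10 osteoblast and osteocyte markers summed to 22660 to 30300 in naive and 45860 to 80240 in DMM libraries, and 8 of them were called higher. In such bulk RNA, fewer cells of a type and less RNA per cell cannot be told apart. Within the naive group, replicates 1 and 2 lay below replicates 3 and 4 for 4676 of 17760 genes tested (26.3%) and for 14 of the 24 Wnt genes tested, so results are also given without these 2 libraries.

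The 34 genes were compared between DMM and naive cartilage with DESeq2 over the whole table. Calls required an adjusted p no higher than 0.05 together with at least a 1.5-fold change, and normalised counts are counts divided by the size factor of the library. Of the 34 genes, 24 had enough reads for an adjusted p, and 16 of these were called higher in DMM: 5 ligands, 7 frizzleds, Lrp6 and all 3 readouts. No member was called lower by DESeq2, by edgeR or by limma-voom, and none had a lower level at an unadjusted p under 0.05. Of all 17760 genes tested, 7.75% were called higher and 5.92% lower. The log2 fold change was above 0 for 23 of the 24 tested members, with a median of 0.74 and a range from -0.27 (Wnt11) to 2.20 (Fzd10), beside a median of -0.016 over all genes tested. When libraries were scaled by their total count, the median over all genes moved to 0.139 and 18 members were called higher, with 11.0% of all genes higher. All 4 DMM libraries lay above all 4 naive libraries for 16 of the 24 tested members, compared with 11.9% of all genes, and all lay below for none, compared with 10.3%. Without naive replicates 1 and 2, an alternative chosen after seeing the data, 8 of the 16 calls remained (Wnt5a, Wnt5b, Fzd1, Fzd4, Fzd7, Fzd9, Lef1 and Tcf7), and 3.71% of all genes were called higher.

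**Figure D1:**
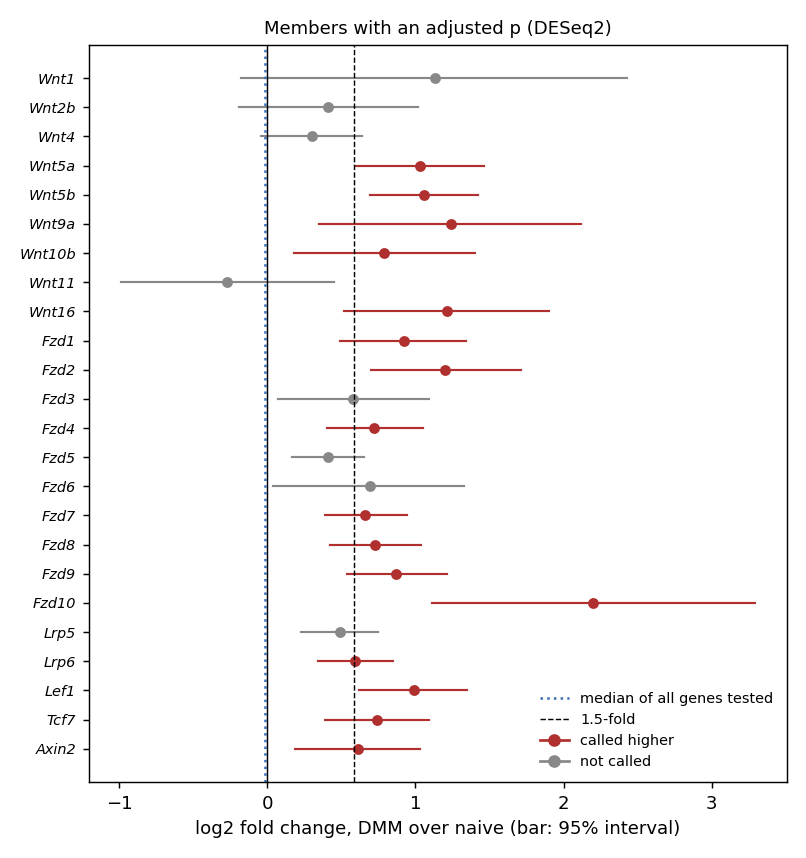
Log2 fold change of DMM over naive with its 95% interval for the 24 members that had an adjusted p (DESeq2), with the median of all genes tested and the 1.5-fold limit drawn as lines. All estimates but that of Wnt11 lie to the right of 0, and the widest interval among called genes belongs to Fzd10 (1.11 to 3.29).

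Among the ligands, Wnt5b and Wnt5a rose by 2.08-fold and 2.04-fold in DMM cartilage, and Wnt16, Wnt9a and Wnt10b were also called higher. Wnt5b (chromosome 6, 119432531 to 119544347, GRCm38) encodes a ligand that acts mainly without beta-catenin and regulates the maturation of growth plate chondrocytes. It had 77.4, 95.8, 109.2 and 105.4 normalised counts in naive replicates 1 to 4 and 224.7, 167.7, 181.1 and 229.2 in DMM replicates 1 to 4. The lowest DMM library was above the highest naive library, and the log2 fold change was 1.06 (SE 0.19, DESeq2 adjusted p = 1.2e-06). Wnt5a (chromosome 14, 28504750 to 28527448, GRCm38) is its close relative and the best known ligand of Ror2. It had 66.0, 55.9, 83.5 and 104.3 normalised counts in the naive libraries and 175.8, 168.8, 161.3 and 127.3 in the DMM libraries. Again the groups did not overlap, although DMM replicate 4 lay near naive replicate 4, and the log2 fold change was 1.03 (SE 0.22, DESeq2 adjusted p = 7.63e-05). An opposite-strand gene, Gm2670, overlaps 4.58% of the exon bases of Wnt5a, and whether reads were assigned by strand was not stated.

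Wnt16 (chromosome 6, 22288227 to 22298522, GRCm38), a ligand of bone and joint tissues with a known role in cortical bone mass, had 33.4, 27.9, 88.8 and 79.4 normalised counts in the naive libraries and 120.2, 92.4, 150.6 and 168.8 in the DMM libraries. Naive replicates 1 and 2 lay far below the other naive libraries, and DMM replicate 2 was only just above naive replicate 3. The log2 fold change was 1.21 (SE 0.35, DESeq2 adjusted p = 0.00504) and the call was kept when any single library was left out, with adjusted p between 0.000629 and 0.029. Without both naive replicates 1 and 2 it was 0.67 (DESeq2 adjusted p = 0.161).

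Wnt9a, which helps to specify the joint interzone in the embryo, had 8.8, 20, 23.5 and 40.8 normalised counts in naive and 56.4, 37.6, 88.9 and 34.3 in DMM libraries. DMM replicates 2 and 4 lay below naive replicate 4, and the log2 fold change was 1.24 (SE 0.45, DESeq2 adjusted p = 0.0319). Wnt10b, which promotes osteoblast formation over fat, had 45.7, 34.6, 72.8 and 99.8 normalised counts in naive and 89.6, 144.0, 97.1 and 107.4 in DMM libraries. Its groups overlapped at naive replicate 4, and the log2 fold change was 0.79 (SE 0.31, DESeq2 adjusted p = 0.0488). These 2 calls were the least firm of the 16. When each of the 8 libraries was left out in turn, Wnt9a was called 3 times (not without naive 1, naive 2, naive 3, DMM 1 or DMM 3), and Wnt10b once, without naive replicate 4. Neither was called by edgeR's quasi-likelihood test, with adjusted p of 0.0738 for Wnt9a and 0.094 for Wnt10b.

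The other ligands with an adjusted p, Wnt4, Wnt2b, Wnt11 and Wnt1, were measured but not called. Wnt4, a ligand of the developing joint, had a narrow spread, from 113.4 to 138.3 normalised counts in naive and from 130.9 to 190.7 in DMM libraries, and its log2 fold change of 0.30 had a 95% interval from -0.04 to 0.64 (DESeq2 adjusted p = 0.229). Wnt2b, an activator of beta-catenin signalling, ranged from 17.3 to 46.5 in naive and from 44.1 to 58.1 in DMM libraries (log2 fold change 0.41, interval -0.19 to 1.02, DESeq2 adjusted p = 0.369). Wnt11, a ligand linked to beta-catenin-independent signalling, ranged from 17.1 to 35.1 and from 14.9 to 27.2 (log2 fold change -0.27, interval -0.99 to 0.45, DESeq2 adjusted p = 0.673), and 8.02% of its 31-base words occur also in Gm8398 on the opposite strand. Wnt1, in which loss of function causes brittle bone disease, had 2, 1, 18 and 14 estimated counts in the naive libraries and 17, 23, 27 and 25 in the DMM libraries. Its 2 lowest values were naive replicates 1 and 2, and naive replicates 3 and 4 overlapped the DMM group after scaling for depth. Its log2 fold change was 1.13 with an interval from -0.18 to 2.43 (DESeq2 adjusted p = 0.232), and without naive replicates 1 and 2 it was 0.25.

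The other 10 ligands had too few reads for an adjusted p. Wnt2, Wnt3, Wnt3a, Wnt7a and Wnt9b never exceeded 2 estimated counts in a library, Wnt8a did not exceed 3, and Wnt6, Wnt8b and Wnt10a reached 6, 9 and 18. A count of 0, found in at least 1 library for each of them but Wnt10a, allows up to 3 counts in that library. Wnt7b, which drives bone formation, had 3, 0, 7 and 4 estimated counts in naive and 11, 9, 15 and 19 in DMM libraries. All 4 DMM libraries were above all 4 naive libraries, with a log2 fold change of 1.69 and an unadjusted p of 0.0141 in DESeq2, but the gene was left without an adjusted p by the filter on low counts. Several Wnt genes lie next to each other in the genome, and some neighbours differed in level. Wnt3a and Wnt9a lie on chromosome 11 between 59248033 and 59333552, and Wnt3a had at most 1 count where Wnt9a had 10 to 108. Wnt9b and Wnt3, between 103727364 and 103817957 on the same chromosome, both had at most 2 counts. Wnt6 and Wnt10a, neighbours on chromosome 1, both had too few reads for an adjusted p. Wnt1 and Wnt10b lie on chromosome 15 between 98770712 and 98793837, and both were lower in naive replicates 1 and 2 than in naive replicates 3 and 4.

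**Figure D2:**
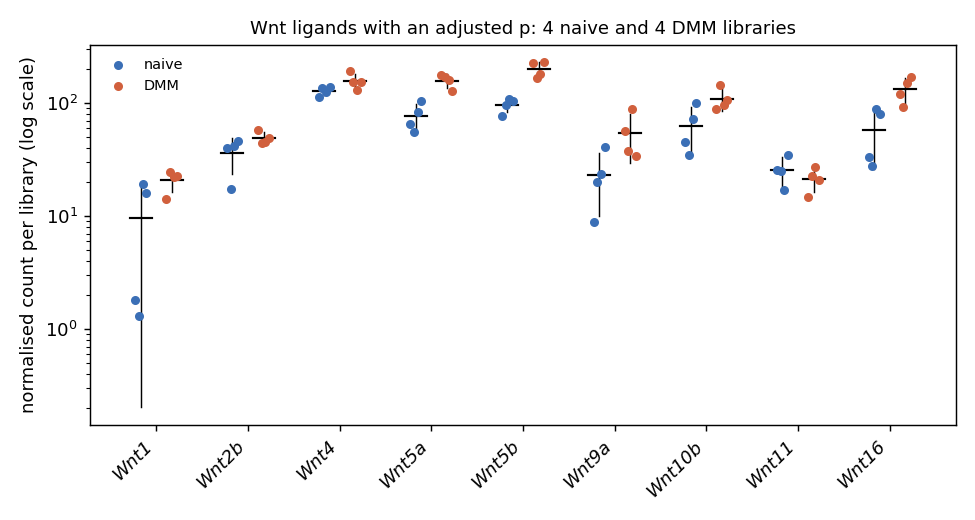
Normalised count per library (log scale) of the 9 Wnt ligands that had an adjusted p, with a point for each of 4 naive and 4 DMM libraries, a bar at the group mean and a line of 1 SD either way. All DMM points lie above all naive points for Wnt5a, Wnt5b and Wnt16, only just so for Wnt16, and 2 of the naive points of Wnt1 lie near 1 normalised count.

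Levels were compared between ligands per kilobase of the longest annotated transcript. Wnt5b was highest in both groups, at 40.9 ± 5.99 normalised counts per kb in naive and 84.6 ± 13.0 in DMM libraries (mean ± SD, n = 4). Wnt4 came next in naive cartilage at 30.6 ± 2.69, followed by Wnt10b at 23.3 ± 10.8 and Wnt16 at 17.5 ± 9.49. Wnt10b did not differ from either of its neighbours by more than its spread, and in naive replicate 4 it was above Wnt4. In DMM cartilage Wnt16 at 40.5 ± 10.2, Wnt10b at 40.4 ± 8.90 and Wnt4 at 37.5 ± 5.89 were within their spread of each other. Wnt5b made up 26.2% ± 4.31 of the summed ligand signal per kb in naive and 30.0% ± 3.43 in DMM libraries, and the share of Wnt4 was 19.9% ± 4.58 and 13.3% ± 1.83 (SD, n = 4). The order depends on the transcript length assumed, as for Wnt5a, with a longest transcript of 7010 bases and a median one of 1254. With the median length, Wnt5a was at 61.7 normalised counts per kb in naive and 126.2 in DMM libraries, above Wnt5b at 43.0 and 88.9, and Wnt16 at 40.5 and 94.0 was below Wnt5b in naive and above it in DMM libraries.

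All 10 frizzled genes had enough reads to be tested, all had a positive log2 fold change (median 0.72), and 7 of the 10 were called higher. The DMM and naive libraries did not overlap for 9 of the 10, with Fzd6 as the exception. Fzd1, Fzd2 and Fzd7 form a group of closely related receptors that share between 0.777% and 1.90% of their 31-base words with one another, so few reads could be divided among them. Fzd1 had 131.0, 170.3, 155.2 and 162.1 normalised counts in naive and 314.3, 312.8, 357.3 and 179.6 in DMM libraries. DMM replicate 4 lay just above the naive group and the other 3 far above it, and the log2 fold change was 0.92 (SE 0.21, DESeq2 adjusted p = 0.000345). Fzd2, which like Fzd7 can bind Wnt5a, had 31.7, 26.6, 45 and 54.4 in naive and 92.9, 75.2, 102.9 and 92.1 in DMM libraries. Every DMM library was above every naive library (log2 fold change 1.2, SE 0.26, DESeq2 adjusted p = 8.74e-05), and without naive replicates 1 and 2 the log2 fold change was 0.88 with an adjusted p of 0.0505 by DESeq2. Fzd7 had 206.7, 244.8, 240.8 and 252.8 in naive and 378.2, 310.7, 418.2 and 386.3 in DMM libraries. The gap between the groups was wider than the spread of the naive group (log2 fold change 0.66, SE 0.14, DESeq2 adjusted p = 7.04e-05).

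Fzd9 and Fzd10 belong to another branch of the family, and Fzd9 is known for a role in osteoblasts. Fzd9 (chromosome 5, 135248938 to 135251230, GRCm38) had 124.0, 117.1, 109.2 and 97.5 normalised counts in naive and 164.2, 223.6, 221.4 and 213.9 in DMM libraries. It had the smallest adjusted p among the frizzleds (log2 fold change 0.87, SE 0.17, DESeq2 adjusted p = 1.34e-05), and here naive replicates 1 and 2 were above replicates 3 and 4. Fzd10 (chromosome 5, 128600844 to 128604093, GRCm38) had the largest fold change of all members from the lowest level of the frizzleds. Its estimated counts were 3, 4, 13 and 8 in naive and 37, 60, 36 and 19 in DMM libraries. The groups did not overlap, and the log2 fold change was 2.20 (SE 0.56, DESeq2 adjusted p = 0.00108). It had no adjusted p without DMM replicate 2 or DMM replicate 3, where the filter on low counts removed it, and without naive replicates 1 and 2 the log2 fold change was 1.63 (DESeq2 adjusted p = 0.0849).

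Fzd4, which also serves as the receptor of Norrin in blood vessels, had 322.7, 291.3, 336.1 and 378.7 normalised counts in naive and 478.5, 668.6, 612.5 and 435.9 in DMM libraries. The groups were apart, with a log2 change of 0.72 (SE 0.17, DESeq2 adjusted p = 0.000246). Fzd8, which can pair with Lrp6 in beta-catenin signalling, had 208.4, 186.3, 226.9 and 278.9 in naive and 390.6, 374.1, 406.7 and 322.2 in DMM libraries. These values too did not overlap (log2 fold change 0.73, SE 0.16, DESeq2 adjusted p = 7.91e-05), and without naive replicates 1 and 2 the log2 fold change of 0.57 fell short of the 1.5-fold limit (DESeq2 adjusted p = 0.034). Of 8 endothelial markers, 4 were called higher and Vwf lower (median 0.59), and the log2 fold change was above 0 for 6 and below 0 for 2. Vwf and Cdh5 were not called without naive replicate 2, nor Egfl7 without DMM replicate 2. Cldn5 and Emcn were each called 4 times when the 8 libraries were left out in turn. The summed normalised counts of these markers were 5962 to 7002 in naive and 6300 to 6964 in DMM libraries. Of these sums, Vwf alone gave 1853 to 3471 in naive and 1204 to 1685 in DMM libraries.

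The 3 frizzleds that were not called were Fzd5, Fzd3 and Fzd6. Fzd5, the sister of Fzd8, had 490.2 to 522.4 normalised counts in naive and 582.0 to 771.8 in DMM libraries. The groups did not overlap and the adjusted p by DESeq2 was 0.00627, but the log2 fold change of 0.41 was under the 1.5-fold limit. The opposite-strand gene Gm38058 overlaps 17.8% of its exon bases. Fzd3 and Fzd6, the frizzleds best known for planar cell polarity, had log2 fold changes of 0.58 (SE 0.26, DESeq2 adjusted p = 0.0938) and 0.69 (SE 0.33, DESeq2 adjusted p = 0.123). Fzd3 ranged from 45.2 to 86.7 normalised counts in naive and from 88.1 to 149.8 in DMM libraries. Fzd6 had 68.6, 46.6, 109.2 and 125.9 in naive and 194.9, 80.6, 163.0 and 124.5 in DMM libraries, and the groups overlapped because DMM replicate 2 was low. When each of the 8 libraries was left out in turn, Fzd6 passed both limits 2 times, without naive replicate 4 and without DMM replicate 2.

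Lrp5 and Lrp6, the co-receptors that carry the beta-catenin signal, were both higher in every DMM library than in any naive library. Lrp6 (chromosome 6, 134446476 to 134566965, GRCm38) had 1523, 1541, 1526 and 1729 normalised counts in naive and 2213, 2105, 2964 and 2255 in DMM libraries. Its log2 fold change was 0.59 (SE 0.13, DESeq2 adjusted p = 0.000103) and lay at the 1.5-fold limit, with a fold of 1.51, so that the call was lost on size alone without naive 1, naive 2, naive 3 or DMM 3, at adjusted p of 0.00191 or less. Lrp5, in which mutations change human bone mass, had 1199, 1300, 1309 and 1185 in naive and 1979, 2014, 1515 and 1496 in DMM libraries. Its log2 fold change was 0.49 (SE 0.13, DESeq2 adjusted p = 0.00217), under the limit.

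**Figure D3:**
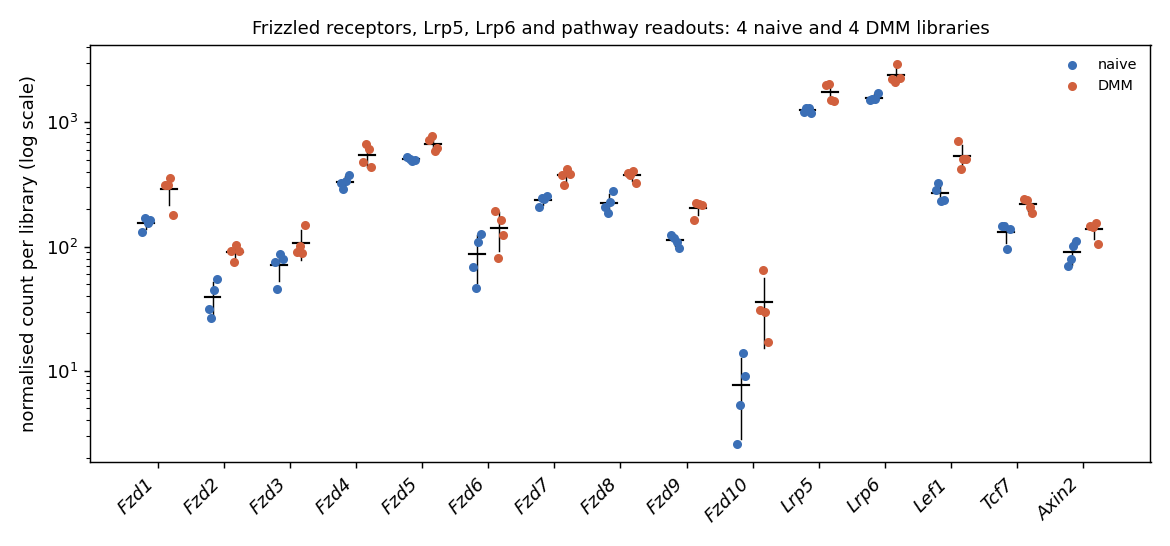
Normalised count per library (log scale) of the 10 frizzleds, Lrp5, Lrp6, Lef1, Tcf7 and Axin2, with a point for each of 4 naive and 4 DMM libraries, a bar at the group mean and a line of 1 SD either way. DMM points lie above all naive points for every gene but Fzd6 and Axin2.

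Per kilobase of longest transcript, Fzd5 was the most abundant frizzled in naive cartilage at 73.0 ± 2.07 normalised counts per kb, followed by Fzd7 at 52.1 ± 4.49, Fzd4 at 49.4 ± 5.39 and Fzd9 at 48.8 ± 4.96 (SD, n = 4). The last 3 were within their spread. In DMM cartilage the single libraries of Fzd5 at 97.3 ± 12.7, Fzd9 at 89.7 ± 12.2, Fzd7 at 82.4 ± 9.97 and Fzd4 at 81.7 ± 16.3 overlapped in range. Fzd5 made up 21.8% ± 1.94 of the summed frizzled signal per kb in naive and 17.4% ± 2.33 in DMM libraries (mean ± SD, n = 4). With the median transcript length in place of the longest, Fzd6 was the highest frizzled, at 116.8 normalised counts per kb in naive and 187.7 in DMM libraries, above Fzd5 at 102.9 and 137.2. On the scale of the longest transcript, Fzd10 and Fzd3 were lowest, at 2.38 ± 1.51 and 5.62 ± 1.43 per kb in naive cartilage. Lrp6 at 168.6 ± 10.7 and Lrp5 at 140.3 ± 7.35 were each above any single frizzled or ligand on this scale. Summed per kb, the ligands ranged from 123.5 to 207.5 in naive and from 266.8 to 291.8 in DMM libraries, and the frizzleds from 317.1 to 364.8 and from 500.5 to 599.2.

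Lef1, Tcf7 and Axin2 were all called higher. Lef1 and Tcf7 encode the DNA-binding partners of beta-catenin, and Axin2, a scaffold that promotes the destruction of beta-catenin, is a widely used target gene that is switched on by the pathway it limits. Lef1 (chromosome 3, 131110471 to 131224356, GRCm38) had 287.6, 327.3, 233.3 and 234.7 normalised counts in naive and 709.1, 420.3, 506.3 and 509.0 in DMM libraries. All DMM libraries were above all naive libraries, and the log2 fold change was 0.99 (SE 0.19, DESeq2 adjusted p = 6.17e-06), or 1.21 without naive replicates 1 and 2. An opposite-strand gene, Gm43352, shares sequence with Lef1, and 13.7% of the exon bases of Lef1 overlap other genes. Tcf7 (chromosome 11, 52252371 to 52283014, GRCm38) had 146.0, 145.0, 96.3 and 137.2 in naive and 242.2, 238.6, 206.6 and 187.7 in DMM libraries. The groups did not overlap, and the log2 fold change was 0.74 (SE 0.18, DESeq2 adjusted p = 0.000614). Axin2 (chromosome 11, 108920349 to 108950783, GRCm38) had 69.5, 79.8, 100.6 and 111.1 in naive and 147.6, 143.0, 153.9 and 105.6 in DMM libraries. DMM replicate 4 fell inside the naive range, and the log2 fold change was 0.61 (SE 0.21, DESeq2 adjusted p = 0.0234). Leaving out each of the 8 libraries in turn, the Axin2 call was kept 3 times (not without naive 1, naive 2, DMM 1, DMM 2 or DMM 3), and without naive replicates 1 and 2 its log2 fold change was 0.39 (DESeq2 adjusted p = 0.448).

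Lef1 and Tcf7 are also abundant in lymphocytes, so their values were set beside lymphoid markers. Of 10 T and NK markers, none was called higher by DESeq2, edgeR or limma-voom, none had a higher level at an unadjusted p under 0.05, and DESeq2 called 2 lower, Cd3d (not without naive replicate 3) and Nkg7, with a list median of -0.25. Their summed normalised counts were 1108 to 1610 in naive and 693.1 to 1162 in DMM libraries, of which Cd3d alone gave 526.8 to 991 and 275.8 to 646.2. The log2 fold change was below 0 for 6 of the 10 and above 0 for 4. The T cell gene Cd3e was at 27.9 to 49.9 in naive and 22.2 to 38.1 in DMM libraries, and Cd3g at 26.8 to 36.3 and 34.3 to 44.8. Of 10 B lineage markers, none was called in either direction by DESeq2, edgeR or limma-voom, 2 had a higher level at an unadjusted p under 0.05, Ebf1 (log2 fold change 0.43, DESeq2 adjusted p = 0.0198) and Igll1 (0.77, DESeq2 adjusted p = 0.117), and the list median was 0.43. Their sums were 3743 to 5951 in naive and 4358 to 10000 in DMM libraries, and the part of B lineage cells in the levels of Lef1 and Tcf7 was not tested.

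Because Tcf/Lef proteins bind a short DNA word, the 250 bases before the RefSeq start of each member were searched on both strands for a word of 7 letters that begins with CTTTG and in which each of the last 2 letters is an A or a T (the 4 such words cannot match at the same place on a strand). RefSeq windows on GRCm38.p6 were held for 24 of the 34 members (31 windows). A match was found in 4 windows, 1 each of Wnt5b, Wnt11, Fzd7 and Lef1, while 14.8% of the 32851 windows of all genes had one. The windows of 3 called members with a match, and that of the readout Axin2, which had none, are shown 5′ to 3′ on the strand of the gene, with the match in capitals.
Wnt5b (chr6:119449387-119449636, minus strand): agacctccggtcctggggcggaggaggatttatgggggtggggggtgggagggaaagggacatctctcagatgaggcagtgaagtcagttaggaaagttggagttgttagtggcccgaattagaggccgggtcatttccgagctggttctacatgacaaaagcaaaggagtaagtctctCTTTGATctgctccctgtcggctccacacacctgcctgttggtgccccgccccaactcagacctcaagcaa
Fzd7 (chr1:59481897-59482146, plus strand): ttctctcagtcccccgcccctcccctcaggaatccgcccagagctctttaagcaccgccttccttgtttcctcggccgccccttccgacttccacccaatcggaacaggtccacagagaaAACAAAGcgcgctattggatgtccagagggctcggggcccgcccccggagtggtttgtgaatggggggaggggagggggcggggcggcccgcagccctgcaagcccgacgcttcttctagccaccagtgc
Lef1 (chr3:131156044-131156293, plus strand): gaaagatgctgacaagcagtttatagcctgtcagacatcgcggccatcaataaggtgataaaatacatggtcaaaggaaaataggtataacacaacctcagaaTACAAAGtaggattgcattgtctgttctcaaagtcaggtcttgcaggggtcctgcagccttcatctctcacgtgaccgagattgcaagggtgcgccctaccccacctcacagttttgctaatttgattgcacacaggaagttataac
Axin2 (chr11:108920099-108920348, plus strand): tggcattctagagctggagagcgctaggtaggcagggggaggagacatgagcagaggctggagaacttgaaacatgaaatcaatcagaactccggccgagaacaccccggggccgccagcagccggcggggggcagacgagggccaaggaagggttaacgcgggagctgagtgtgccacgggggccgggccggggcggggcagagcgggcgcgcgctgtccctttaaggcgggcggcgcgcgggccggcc
The match begins 71 bases before the start in Wnt5b, 130 in Fzd7 and 147 in Lef1. In Fzd7 and Lef1 the capitals are the reverse complement of the word searched, and the Lef1 and Wnt5b windows precede starts that lie inside those genes. A match describes the letters only, and the absence of one in the Axin2 window says only that these words are not in these 250 bases.

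The rest of the pathway was read from 74 other Wnt pathway genes in 7 lists, of which 70 were tested. Of these, 24 were called higher and 1 lower, and their median log2 fold change was 0.38, beside 7.75% higher, 5.92% lower and a median of -0.016 over all genes. Each list but that of the cytoplasmic transducers held at least 1 gene called higher. Without naive replicates 1 and 2, 12 of these genes were called higher.

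Of 4 genes for ligand acylation, release and inactivation, 2 were called higher (median 0.87). Notum, which removes the lipid from Wnts and so inactivates them, had 19.3, 25.3, 30.0 and 18.1 normalised counts in naive and 90.4, 88.1, 80.7 and 88.4 in DMM libraries. Each DMM library was far above any naive one, with a log2 change of 1.91 (SE 0.26, DESeq2 adjusted p = 3.69e-11). Trabd2b, a protease that clips Wnts, had a log2 change of 1.02 (DESeq2 adjusted p = 0.000159). Wls, the carrier that Wnts need for secretion, had a log2 change of 0.35 (DESeq2 adjusted p = 0.0115), under the limit.

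Of 14 secreted and surface antagonists, 11 were tested and 8 were called higher (median 0.80). Dkk3 had a log2 change of 1.79 (SE 0.26, DESeq2 adjusted p = 1.89e-09), Sfrp4, a secreted frizzled-related protein, 0.87 (DESeq2 adjusted p = 5.51e-06) and Kremen1, a receptor for Dkk proteins, 0.85 (DESeq2 adjusted p = 0.000109). These 3 calls were kept whichever library was left out, and also without naive replicates 1 and 2. Sost, the osteocyte inhibitor of Lrp5 and Lrp6, is on this list and also on the osteocyte list, and its call was kept 4 times when each of the 8 libraries was left out in turn (not without naive 3, DMM 1, DMM 2 or DMM 4). In the same fits the call of the antagonist Frzb was kept 3 times and that of Sfrp1 4 times. Without naive replicates 1 and 2, 4 antagonists were called higher, with Sost, Frzb, Sfrp1 and Wif1 lost.

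Of 9 genes of the R-spondin module, which sets how many frizzleds stay on the cell surface, Rspo3 was called higher and Rnf43 lower (median 0.31). Rnf43, an enzyme that marks frizzleds for removal, had 46.6, 58.5, 39.6 and 44.2 normalised counts in naive and 24.9, 25.8, 28.0 and 25.3 in DMM libraries. The groups did not overlap and the log2 fold change was -0.86 (SE 0.28, DESeq2 adjusted p = 0.0129), but the call was lost without naive 1, naive 2 or DMM 1. Its relative Znrf3 had a log2 change of 0.52 (DESeq2 adjusted p = 0.00697) and the R-spondin receptor Lgr4 of 0.55 (DESeq2 adjusted p = 0.000115), both under the 1.5-fold limit. Rspo3, an activating ligand of this module, had a log2 change of 0.82 (DESeq2 adjusted p = 0.0339) and its call was kept only without naive 4 or without DMM 4 when libraries were left out singly.

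Of 13 beta-catenin-independent receptors and planar polarity genes, 6 were called higher by DESeq2, edgeR and limma-voom alike and none lower (median 0.55). Ptk7, a co-receptor of planar polarity, had 154.8, 207.5, 207.6 and 203.0 normalised counts in naive and 495.1, 474.1, 393.5 and 360.1 in DMM libraries. The 2 groups were far apart (log2 fold change 1.16, SE 0.16, DESeq2 adjusted p = 2.89e-10). Ryk, an atypical receptor kinase that binds Wnts, had a log2 change of 0.88 (DESeq2 adjusted p = 9.65e-08) and Daam2, a formin downstream of Dishevelled, of 0.76 (DESeq2 adjusted p = 5.16e-06). A lower level at an unadjusted p under 0.05 was found for 2 genes of this list, Daam1 and Celsr3. Daam1, the paralogue of Daam2, had 1591, 1644, 1219 and 1230 normalised counts in naive and 782.9, 857.8, 1257 and 924.2 in DMM libraries. Only DMM replicate 3 reached into the naive range, and the log2 change of -0.57 (SE 0.17, DESeq2 adjusted p = 0.00716) was just under the 1.5-fold limit. Celsr3, a planar polarity cadherin, had a log2 change of -0.56 (DESeq2 adjusted p = 0.0858). The Wnt5a receptors Ror1 and Ror2, picked out after their values were seen, had log2 fold changes of 0.92 (DESeq2 adjusted p = 0.00706) and 0.93 (DESeq2 adjusted p = 0.00113). Neither they nor Daam2 were called without naive replicates 1 and 2, and Ror1 was not called without naive replicate 1 alone.

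Of 13 cytoplasmic transducers, none was called by DESeq2, edgeR or limma-voom, the median was 0.02, and 5 had an unadjusted p under 0.05, namely Ctnnb1, Dvl1 and Apc with higher and Dvl3 and Gsk3a with lower levels. All 5 were under the 1.5-fold limit. Ctnnb1, the gene of beta-catenin, had 3777 to 4197 normalised counts in naive and 4908 to 5164 in DMM libraries, a log2 change of 0.35 (SE 0.07, DESeq2 adjusted p = 4.52e-05). Dvl1 and Apc, encoding the Dishevelled relay and a scaffold of the destruction complex, had log2 fold changes of 0.44 (DESeq2 adjusted p = 0.0139) and 0.24 (DESeq2 adjusted p = 0.00886). Dvl3, another Dishevelled gene, had 972.6, 1180, 1809 and 1454 normalised counts in naive and 907.3, 853.5, 706.3 and 1166 in DMM libraries, with overlap of the groups and a log2 change of -0.58 (SE 0.20, DESeq2 adjusted p = 0.0267). Gsk3a, a kinase of the destruction complex, was lower in every DMM library than in any naive one, at a log2 change of -0.27 (DESeq2 adjusted p = 0.0415).

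Of 11 other nuclear factors, 3 were called higher, Bcl9l, Pygo1 and Tle2 (median 0.40). Bcl9l and Pygo1, co-activators that beta-catenin recruits, had log2 fold changes of 0.78 (DESeq2 adjusted p = 1.13e-06) and 0.68 (DESeq2 adjusted p = 0.000171), and Tle2, a co-repressor, 0.79 (DESeq2 adjusted p = 0.00459). Tcf7l2, another Tcf protein, had 0.53 (DESeq2 adjusted p = 0.00336), under the limit. Pygo1 and Tle2 were not called without naive replicates 1 and 2.

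Of 10 other reported beta-catenin target genes, 9 were tested and 4 were called higher (median 0.55). None was called lower by DESeq2, edgeR or limma-voom, and 1, the growth gene Myc, had a lower level at an unadjusted p under 0.05 (log2 fold change -0.40, DESeq2 adjusted p = 0.095). Ccn4, also known as Wisp1, had 685.1, 717.1, 723.5 and 729.1 normalised counts in naive and 1450, 1492, 1400 and 1512 in DMM libraries. With so little spread in either group its log2 fold change of 1.04 had an SE of 0.08 (DESeq2 adjusted p = 3.42e-31). Bambi, a decoy receptor of the BMP and TGF-beta family, had a log2 change of 0.86 (DESeq2 adjusted p = 8.72e-12) and Nkd2, an inhibitor of Dishevelled, of 1.29 (DESeq2 adjusted p = 3.69e-09). All 3 calls were kept whichever of the 8 libraries was left out, and also without naive replicates 1 and 2. Sp5 was at 0 counts in every library, which allows up to 3 counts in each.

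**Figure D4:**
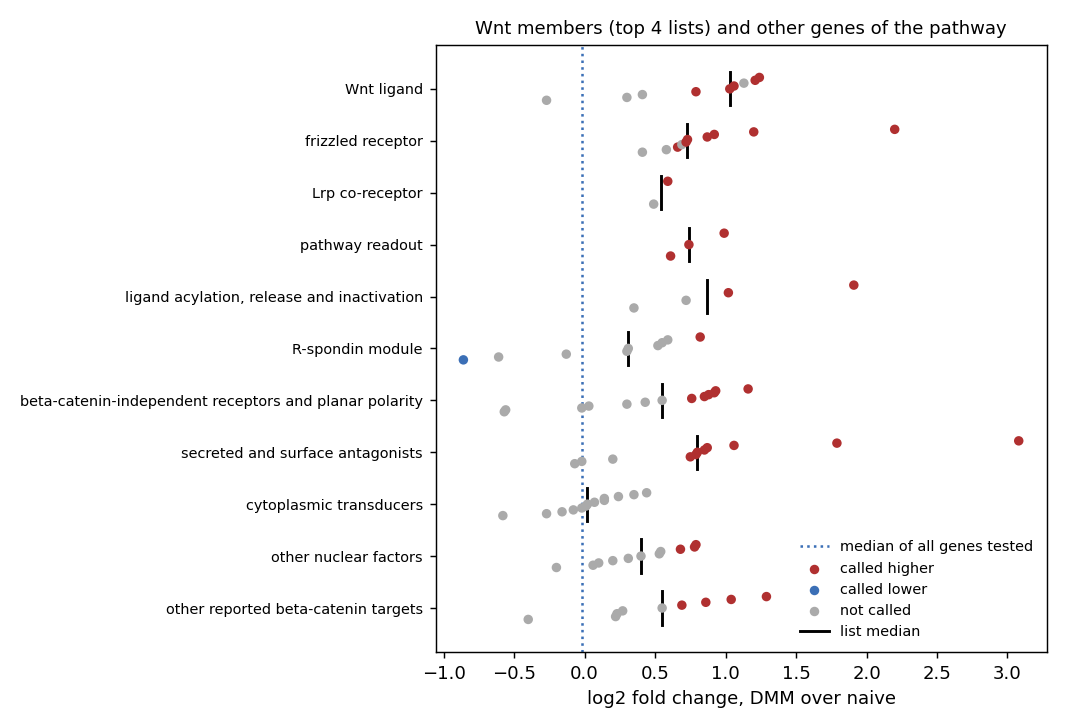
Log2 fold change of DMM over naive for each tested gene of the 4 lists of ligands, frizzleds, Lrp co-receptors and readouts and the 7 lists of other pathway genes, coloured by call, with the list median as a bar and the median of all genes tested as a dotted line. The medians range from 1.03 for the ligands to 0.02 for the cytoplasmic transducers.

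Bone cells are a source of Wnts, so the members were also read beside the osteoblast and osteocyte markers, 8 of 10 of which were called higher (median 1.04). Of the 24 tested members, 6 had a larger log2 fold change than that median, and 10 had a larger one than the chondrocyte marker median of 0.84. In the osteocyte genes Sost, Mepe and Dmp1, picked out after their values were seen, naive replicates 1 and 2 also lay below replicates 3 and 4. Ibsp, Runx2, Phex and Alpl of the same marker list had this order too, and Bglap, Bglap2 and Sp7 did not. Sost had 1170, 1039, 2097 and 2890 normalised counts in naive and 3229, 3918, 2750 and 5137 in DMM libraries. Mepe had 1192, 892.7, 2215 and 3263 in naive and 2662, 3965, 3291 and 5831 in DMM libraries. Of the 24 tested members, 14 were ordered in the same way within the naive group, among them Wnt1, Wnt9a, Wnt10b and Wnt16. So were 26.3% of all genes tested. In contrast, Lef1, Tcf7, Fzd5 and Fzd9 were higher in naive replicates 1 and 2 than in replicates 3 and 4. The part of bone cell content in the levels of any member was not tested.

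**Figure D5:**
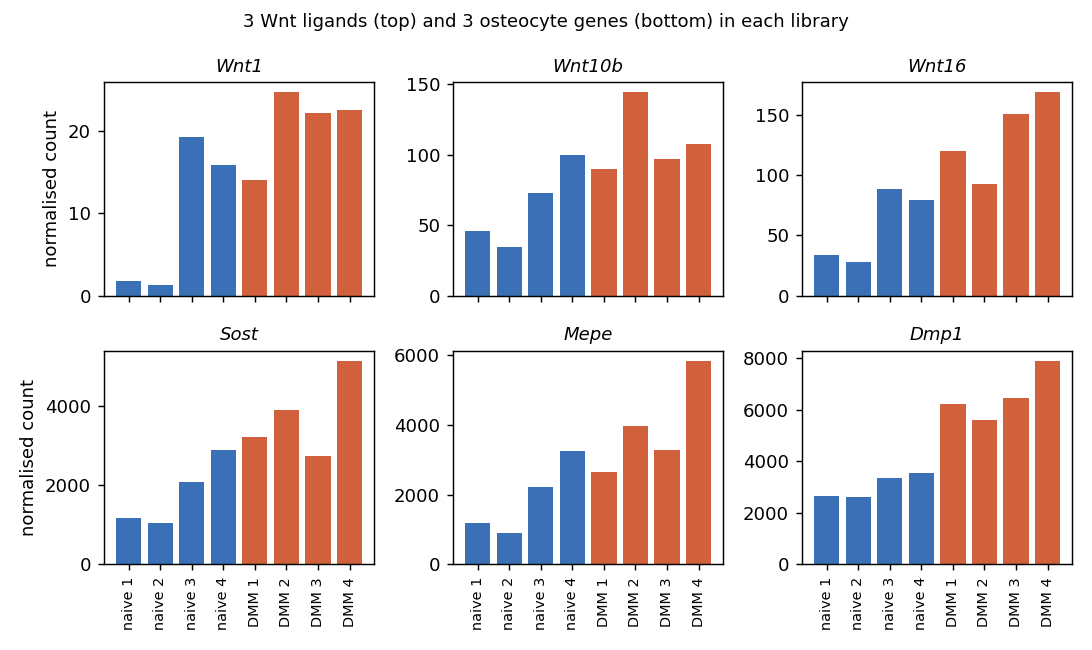
Normalised count in each of the 4 naive and 4 DMM libraries for the ligands Wnt1, Wnt10b and Wnt16 (top) and the osteocyte genes Sost, Mepe and Dmp1 (bottom), genes picked after their values were seen. In all 6 genes the bars of naive replicates 1 and 2 are lower than those of naive replicates 3 and 4.

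The other cell type lists held few calls. Of 8 osteoclast markers 1 was called higher, Ocstamp, with sums of 10830 to 16770 in naive and 12530 to 21410 in DMM libraries, and of 8 macrophage markers 1 was called lower, Cd163, with sums of 6982 to 8449 and 6244 to 7918. Of 8 synovial fibroblast markers 2 were called higher, Pdpn and Thy1, with sums of 32790 to 99750 and 27060 to 50790. Most of these sums came from Prg4, which was not called and alone gave 30378 to 96845 in naive and 24672 to 48057 in DMM libraries. Of 8 skeletal muscle markers 1 was called higher, Myh2, with sums of 89.7 to 491.2 in naive and 64.8 to 1350 in DMM libraries. Myh2 had 101.2 normalised counts in DMM replicate 1 and 3.2, 18.1 and 4.5 in the other DMM libraries, and its log2 fold change of 2.82 was 0.96 without DMM replicate 1. Its call was also lost without naive 1, DMM 2 or DMM 3.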

How the data were processed

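The deposited table holds estimated counts per gene for 8 libraries, which per the methods the authors made by trimming reads (Trimmomatic), pseudo-aligning them to the mouse transcriptome (Kallisto) and summing transcripts to genes (tximport). The methods name GRCm38 and the submitters' processing notes GRCh38, a human build, so the build was not settled. The labels and the methods name different library kits, and strand use was not stated. Coordinates are from GENCODE vM21 (GRCm38) by gene identifier, and promoters are from RefSeq (GRCm38.p6).

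Estimated counts were rounded and tested with DESeq2 1.42.0 in R 4.3.3 (size factors by median of ratios, Wald test, independent filtering at 0.05, unshrunken log2 fold changes, Benjamini-Hochberg adjustment over 17760 genes), without covariates. Calls needed an adjusted p no higher than 0.05 together with at least a 1.5-fold change. Alternatives were edgeR 4.0.16 (quasi-likelihood), limma-voom 3.58.1, TMM factors, total-count scaling, no independent filtering, a filter of 10 counts in 4 libraries, no Cook filter, no fold threshold, the replicate number as a block, and leaving out each library. Leaving out naive replicates 1 and 2 together was added after the data were seen.

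The members and lists were chosen with earlier results of these data known. All 34 members are named, as are the 3 genes of each companion list with the smallest adjusted p and the genes behind a list's count of calls of 3 or fewer. Total counts were 12479443 to 16548002 per library. Intervals come from the DESeq2 fit, which takes in the spread between mice of a group, whereas floors cover counting error only. No pair of libraries of a group agreed within counting noise (chi-square per degree of freedom of at least 8.09). Each library came from its own mouse.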

Additional observations from a re-analysis of the deposited data

Results flagged for a closer look

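In 2 groups of 4 libraries, 1 library stood apart from the other 3 by Dixon's test at the 95% level. For Fzd9, DMM replicate 1 was the lowest of its group at 164.2 normalised counts, while the other DMM libraries lay between 213.9 and 223.6. For Lrp6, naive replicate 4 was the highest of its group at 1729.1 normalised counts, while the other naive libraries lay between 1523.1 and 1540.6. In total 48 groups were tested, of which chance would flag about 1 in 20, or 2.4.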

How the results depend on the processing

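No log2 fold change of a tested member changed sign under any alternative run in which the member had an adjusted p. In 7 cases a tested member had none in an alternative run, and its sign there was not compared. Of the 16 calls, 11 (Wnt5a, Wnt5b, Wnt16, Fzd1, Fzd2, Fzd4, Fzd7, Fzd8, Fzd9, Lef1 and Tcf7) were kept under every other alternative, and 8 of these when naive replicates 1 and 2 were left out together. The count of members called higher was 11 to 17 when 1 library was left out (11 without DMM replicate 3, with Wnt9a, Wnt10b, Fzd10, Lrp6 and Axin2 lost), 14 by edgeR, by limma-voom or with no independent filtering (Wnt9a and Wnt10b lost each time), 16 with TMM factors, with the count filter or with no Cook filter, and 18 with total-count scaling (Fzd3 and Lrp5 added) or no fold threshold (Fzd5 and Lrp5 added). With naive replicates 1 and 2 left out together, a fit with fewer samples, 8 members and 12 companion genes were called higher, and over all genes 1097 were called in place of 2429. Companion genes called higher numbered 20 to 26 when 1 library was left out, and those called lower numbered 0 to 2. With no fold threshold 4 companion genes were called lower. The numbers given to replicates were not used to pair the mice in the main fit. Correlations of same-numbered deviations were 0.05, 0.06, -0.12 and 0.12. Differently numbered libraries were not compared in this way, so these values do not settle whether the numbers pair the mice. A fit with the replicate number as a block called 12 members higher (Wnt9a, Wnt10b, Lrp6 and Axin2 lost), 21 companion genes higher and 0 lower. Levels per kb moved by over 1 SD for 25 of 48 group means when the median transcript length replaced the longest. Depth limits the 10 ligands without an adjusted p, and Wnt1 and Fzd10 rest on few reads.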
